A study of Mus musculus with 26 samples.

Results

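The 10 circadian clock genes described here, in the left ventricle of the mouse, were Per1, Per2, Per3, Cry1, Cry2, Nr1d1, Nr1d2, Dbp, Clock and Bhlhe40. They were chosen by gene symbol from a deposited table of 40413 genes, not by their values, though with earlier results of these data known. All 10 were among the 15543 genes with enough counts to be tested. Polyadenylated RNA came from 2 strains of adult mice: the normotensive BPN/3J and the hypertensive BPH/2J, which was bred by selection for high blood pressure. The mice had been given vehicle or Cmpd17b, a small-molecule agonist of formyl peptide receptors, by intraperitoneal injection at 50 mg/kg/day for 28 days. The 25 libraries used were 7 from BPN/3J mice on vehicle (BPN_vehicle), 5 from BPN/3J on Cmpd17b (BPN_Cmpd17b), 7 from BPH/2J on vehicle (BPH_vehicle) and 6 from BPH/2J on Cmpd17b (BPH_Cmpd17b). The labels also give a batch, with no statement of what the batches were: 20 libraries belong to batch 1 and 5 to batch 2, and all 5 BPN_Cmpd17b libraries belong to batch 1. The sources used here do not give the time of day at which tissue was taken, so no level below can be placed on a daily cycle.

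The clock is a feedback loop of transcription that runs in nearly every cell, cardiomyocytes included. CLOCK, paired with BMAL1, binds E-box sequences and switches on the Per and Cry genes, the nuclear receptors Nr1d1 and Nr1d2 (REV-ERB alpha and beta), and the output factors Dbp, Tef and Hlf. PER and CRY proteins then repress CLOCK and BMAL1, while the REV-ERB receptors repress Bmal1, Clock and Npas2 through elements that they share with the activating ROR receptors. Bmal1 RNA and Dbp RNA therefore peak at opposite times of day in most tissues. Dbp, Tef and Hlf bind D-box sequences, and Nfil3 represses through the same sequences. In the heart the clock is known to time genes of metabolism, ion channels and contraction.

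One library was left out of every value unless stated. In the library labelled BPH_Cmpd17b replicate 7, the cardiac myosin gene Myh6 stood at 16.3 CPM, against 13568 to 22901 CPM in the other 25. Umod, a kidney tubule gene, stood at 2539 CPM there and at no more than 6.89 CPM elsewhere. CPM are counts scaled to library size. TMM factors were applied to all CPM except those of Myh6, Umod and the marker sums. Total counts of the 25 libraries ran from 25476100 to 48648200, to 6 digits, and mitochondrial genes took 26.2 to 38.7% of them. The summed level of 7 cardiomyocyte markers was 46097 to 59378 CPM. Within the 25, BPH_Cmpd17b replicate 6 (batch 2) had the lowest mitochondrial share, 26.2%, and the highest sum of 4 atrial markers, 3099 CPM against a median of 418 CPM. Its sums of 4 fibroblast markers (1106 CPM, median 617 CPM) and 4 macrophage markers (119 CPM, median 74.0 CPM) were the highest too. BPN_vehicle replicate 7 (batch 1) had the highest mitochondrial share, 38.7%, and the highest sum of 4 endothelial markers, 1073 CPM against a median of 476 CPM. These 2 libraries hold the lowest and the highest Dbp level of all, so values that change without them are also given for the other 23. The sum of 4 hepatocyte markers was 340 CPM in BPN_vehicle replicate 1 and 523 CPM in BPN_vehicle replicate 2, both of batch 2, against a median of 0.761 CPM and no more than 59.3 CPM elsewhere. The part of that signal in the results was not tested, and calls of the genes named below that end without both libraries are given there. In bulk tissue, fewer cells of a type and less RNA per cell cannot be told apart.

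All 10 members were well counted, from 144 counts for Cry1 in its lowest library to 6604 for Dbp in its highest. The Per genes, which encode the repressors that accumulate each day, ranged widely between mice. Per2 ran from 5.38 to 23.5 CPM over the 25 libraries, a 4.37-fold range. Per3 ran from 16.6 to 61.7 CPM, a 3.72-fold range, and Per1 from 14.6 to 52.3 CPM, a 3.59-fold range. Of the cryptochromes, the partners of PER in repression, Cry2 ran from 17.6 to 40.2 CPM (2.28-fold) and Cry1 from 4.19 to 8.02 CPM (1.91-fold). Dbp, the D-box activator and the most direct output of the loop in the set, ran from 43.9 to 184 CPM, a 4.19-fold range. The REV-ERB gene Nr1d1 ran from 70.8 to 154 CPM and its relative Nr1d2 from 69.5 to 142 CPM. Clock, the activator itself, had the smallest range of the 10, 20.6 to 38.5 CPM or 1.87-fold. Bhlhe40, which encodes the repressor DEC1 that competes for E-boxes, ran from 38.3 to 86.6 CPM.

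**Figure D1:**
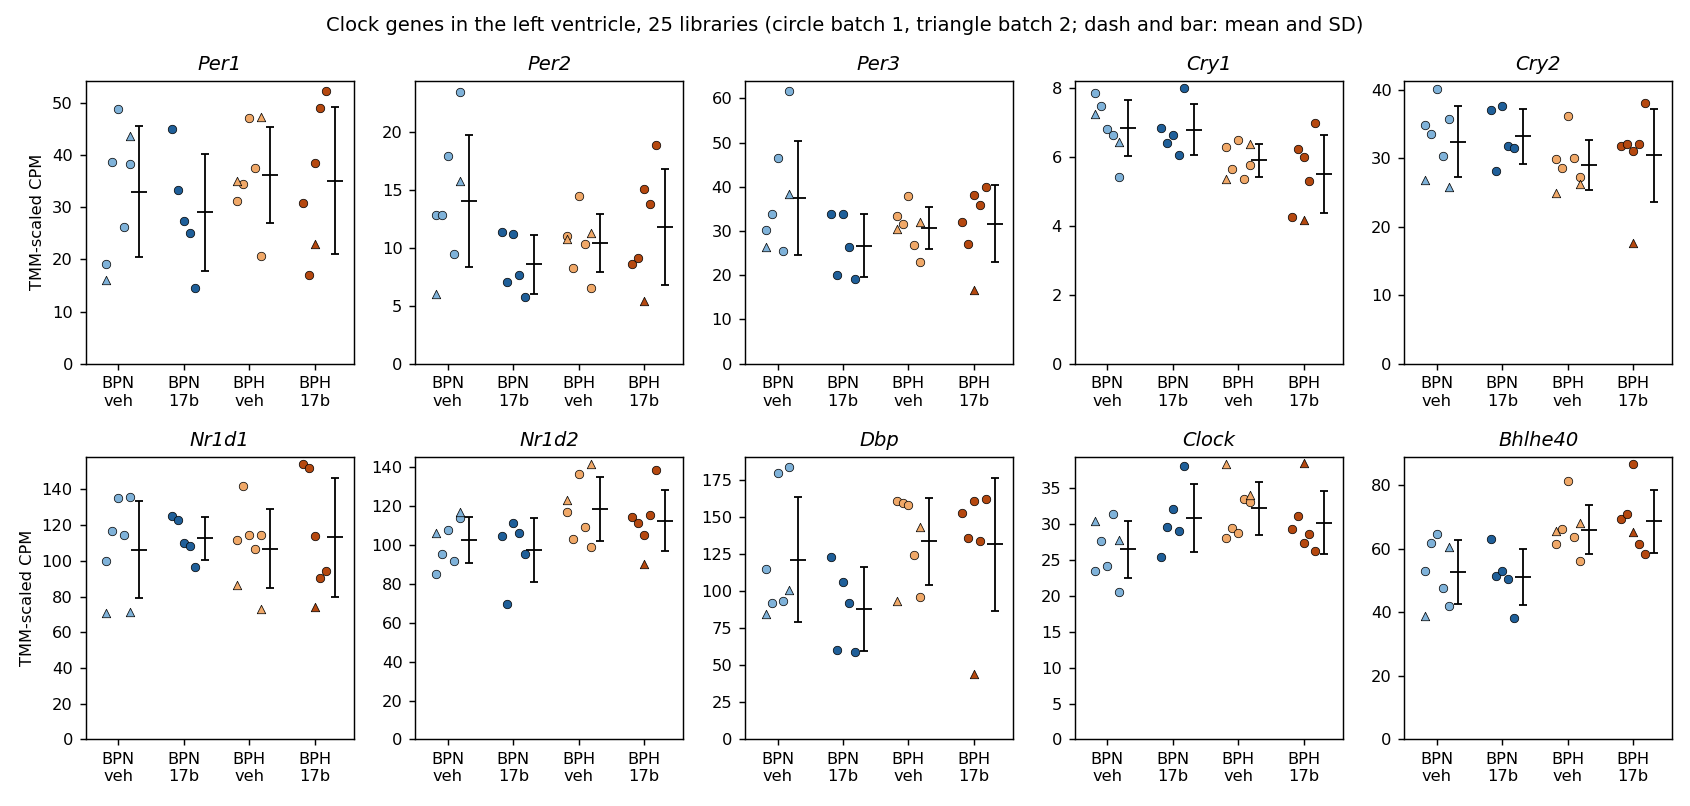
TMM-scaled CPM of the 10 members (vertical axis, from 0) in the 25 libraries by strain and treatment group (horizontal axis), with circles for batch 1, triangles for batch 2, and the group mean and SD beside the points. The groups overlap in every panel, and the lowest Dbp point, 43.9 CPM, is a batch 2 library of BPH_Cmpd17b.

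Most of this range lay between mice of the same group. The SD between mice within groups, on the log2(CPM + 0.5) scale, was 0.56 for Per1, 0.52 for Per2, 0.51 for Dbp and 0.39 for Per3, against a median of 0.23 over all genes tested. These values stood at percentiles 98.2, 97.7, 97.7 and 93.0 of all genes. Nr1d1 followed with an SD of 0.34, at percentile 86.8. The SD of Cry2 was 0.25, of Bhlhe40 0.23, of Nr1d2 0.21, of Clock 0.19 and of Cry1 0.18, between percentiles 27.9 and 57.6. Nr1d1 and Cry2 lost part of their spread once batch means were also subtracted, to 0.21 and 0.17, while Per1, Per2 and Dbp stood at percentiles 98.7, 98.0 and 96.7. Outside the 10, Bmal1, the partner of CLOCK, had an SD of 0.60 (percentile 98.6) and Ciart, a repressor of CLOCK and BMAL1, 0.84 (percentile 99.4). The percentiles describe these libraries and were not tested.

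**Figure D2:**
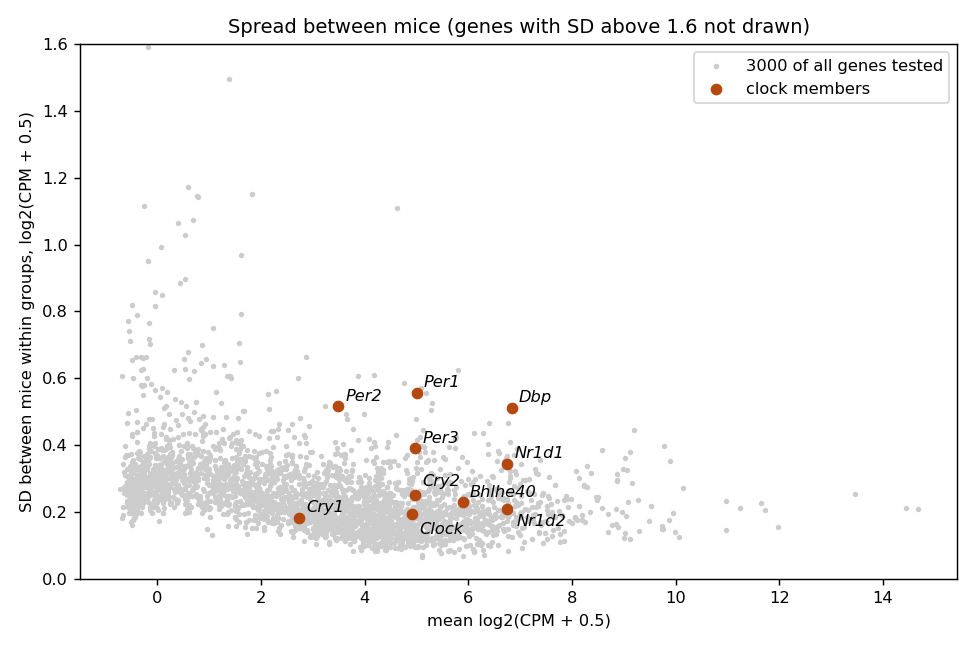
SD between mice within groups against mean level, both on the log2(CPM + 0.5) scale, for the 10 members (orange) and 3000 of the 15543 genes tested (grey). Per1, Per2 and Dbp lie above most genes of their level, with SDs of 0.56, 0.52 and 0.51, while Clock and Cry1 lie among them.

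Promoter sequence is shown for the 3 members with 2 matches to binding sequences of clock factors close to the start, Per1, Per3 and Cry1, and for Ciart with 3, a choice made after the matches were seen. RefSeq promoter windows of build GRCm38.p6, which is not the build of the counts, held 8 of the 10 members. The 250 bases before each start were searched on both strands for the E-box CACGTG, the related CACGTT, the D-boxes TTATGTAA and TTACGTAA, and AGGTCA, the core sequence of the sites that ROR and REV-ERB receptors share. Of 32851 such windows in the table, 6.02% hold CACGTG, 3.85% CACGTT, 14% AGGTCA and 0.931% a D-box. The Per1 window (chr11:69098699-69098948, plus strand) holds 1 E-box and 1 AGGTCA, the latter as its reverse complement. The Per3 window (chr4:151044666-151044915, minus strand) holds 2 D-boxes, and 0.0213% of windows hold 2 or more. The Cry1 window (chr10:85185055-85185304, minus strand) holds CACGTG and, as its reverse complement, CACGTT. The window of Ciart, which is not a member but followed Dbp most closely, lies at chr3:95882229-95882478 on the minus strand and holds 3 E-boxes, where 0.429% of windows hold 2 or more. Each is written 5′ to 3′ with the matches in capitals.
Per1: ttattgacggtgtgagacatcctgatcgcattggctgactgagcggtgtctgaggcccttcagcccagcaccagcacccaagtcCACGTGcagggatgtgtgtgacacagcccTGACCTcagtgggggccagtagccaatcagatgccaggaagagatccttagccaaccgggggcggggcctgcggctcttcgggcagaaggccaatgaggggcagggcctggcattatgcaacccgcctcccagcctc
Per3: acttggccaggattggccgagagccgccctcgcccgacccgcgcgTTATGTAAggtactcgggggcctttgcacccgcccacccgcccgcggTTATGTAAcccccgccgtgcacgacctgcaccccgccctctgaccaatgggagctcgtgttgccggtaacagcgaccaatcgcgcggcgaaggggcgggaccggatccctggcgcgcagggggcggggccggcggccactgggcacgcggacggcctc
Cry1: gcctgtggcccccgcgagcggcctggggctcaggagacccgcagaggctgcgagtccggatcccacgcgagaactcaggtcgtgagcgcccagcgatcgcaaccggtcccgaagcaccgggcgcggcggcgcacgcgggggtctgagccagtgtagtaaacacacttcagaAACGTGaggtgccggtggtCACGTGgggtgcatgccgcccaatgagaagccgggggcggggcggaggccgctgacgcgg
Ciart: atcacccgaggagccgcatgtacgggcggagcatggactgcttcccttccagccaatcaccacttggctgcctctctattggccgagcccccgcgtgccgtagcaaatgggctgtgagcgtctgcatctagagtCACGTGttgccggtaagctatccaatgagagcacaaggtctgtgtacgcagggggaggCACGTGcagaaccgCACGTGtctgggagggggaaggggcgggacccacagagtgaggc
The windows of Cry2 and Nr1d1 hold CACGTT, those of Nr1d2 and Clock AGGTCA, and the Dbp window none of these letters. A second window of Per1 and 2 further windows of Clock hold none either. Of the other clock genes searched, both windows of Tef hold 1 E-box, and those of Bmal1 and Npas2 hold none of these letters. In the GENCODE M21 annotation, exons cover 159 of the 250 bases of the Dbp window and all 250 of 1 Tef window. They cover 138 and 167 bases of the 2 further Clock windows. A match describes letters and shows no binding.

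Within groups, most members deviated with Dbp, or opposite to it, from mouse to mouse. Dbp served as the reference: for each gene, log2(CPM + 0.5) had its group mean subtracted and was correlated with Dbp over 25 mice. Of the 9 other members, 6 had an r above 0.5 and 1 had an r below -0.5, where 4.23% and 4.95% of 11966 genes with a mean log2 level of at least 1 did. The family tested was these 9 and 9 other clock genes, 18 correlations, with a two-sided permutation test within groups (100000 resamples) adjusted by Benjamini and Hochberg over the 18. By that test 7 members and 6 other genes passed an adjusted p of 0.05, 9 of the 13 positive and 4 negative.

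Among the repressors, Per3 followed Dbp most closely, with r = 0.88 and Spearman's rho = 0.88 (permutation p = 1e-05, the smallest that the resamples can give, adjusted p = 4.5e-05). Cry2 had r = 0.86 and rho = 0.79 (permutation p = 3e-05, adjusted p = 0.000108). Per2 had r = 0.76 and rho = 0.72 (permutation p = 5e-05, adjusted p = 0.000129). Per1 was looser, with r = 0.50 and rho = 0.50 (permutation p = 0.0215, adjusted p = 0.0298), and leaving out any one of 5 libraries took its adjusted p above 0.05. Cry1 had r = 0.20 and Bhlhe40 r = 0.32, with adjusted permutation p of 0.547 and 0.190. In the 23 libraries, without BPH_Cmpd17b replicate 6 and BPN_vehicle replicate 7, Bhlhe40 passed, with r = 0.58 (adjusted permutation p = 0.0141). Without the 2 libraries farthest from the median of centred Dbp, named below, its r was 0.27. Within the set, Per2 and Per3 had r = 0.91 with each other, the highest of all pairs of members. Per1 and Per2 had r = 0.78, and Per3 had r = 0.72 with Cry2 and -0.76 with Clock. Some other pairs were weak: Nr1d1 had r = -0.18 with Nr1d2 and 0.06 with Per1. These values between members are given as a description.

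The REV-ERB genes fell between. Nr1d2 had r = 0.55 and rho = 0.51 (permutation p = 0.00847, adjusted p = 0.0139), and Nr1d1 had r = 0.54 and rho = 0.50 (permutation p = 0.00964, adjusted p = 0.0145). For Nr1d1 the correlation was 0.31 within the 20 libraries of batch 1 (adjusted permutation p = 0.139), so it did not hold there, and it was 0.34 (adjusted permutation p = 0.145) in the 23 libraries. For Nr1d2 it was 0.67 within batch 1 (adjusted permutation p = 0.00712), and 0.42 in the 23 libraries (adjusted permutation p = 0.126).

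Clock went the other way, with r = -0.82 and rho = -0.78 (permutation p = 4e-05, adjusted p = 0.00012). Bmal1 and Npas2, the partner and the close relative of CLOCK, did the same, with r = -0.88 (rho = -0.87, adjusted permutation p = 4.5e-05) and r = -0.86 (rho = -0.76, adjusted permutation p = 0.000158). Nfil3, the D-box repressor, had r = -0.76 (rho = -0.70, adjusted permutation p = 0.00032). On the positive side, Ciart had r = 0.93 and Tef r = 0.89, each with an adjusted permutation p of 4.5e-05, and Hlf had r = 0.70 (adjusted permutation p = 0.0109). Mice with high Dbp thus had high Per2, Per3, Cry2, Ciart and Tef and low Clock, Bmal1, Npas2 and Nfil3. The receptor genes Rora and Rorb had r = -0.25 and -0.29, and Bhlhe41 0.06, none past the threshold. With batch means also subtracted, Bhlhe41 had r = 0.57 (adjusted permutation p = 0.0492).

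**Figure D3:**
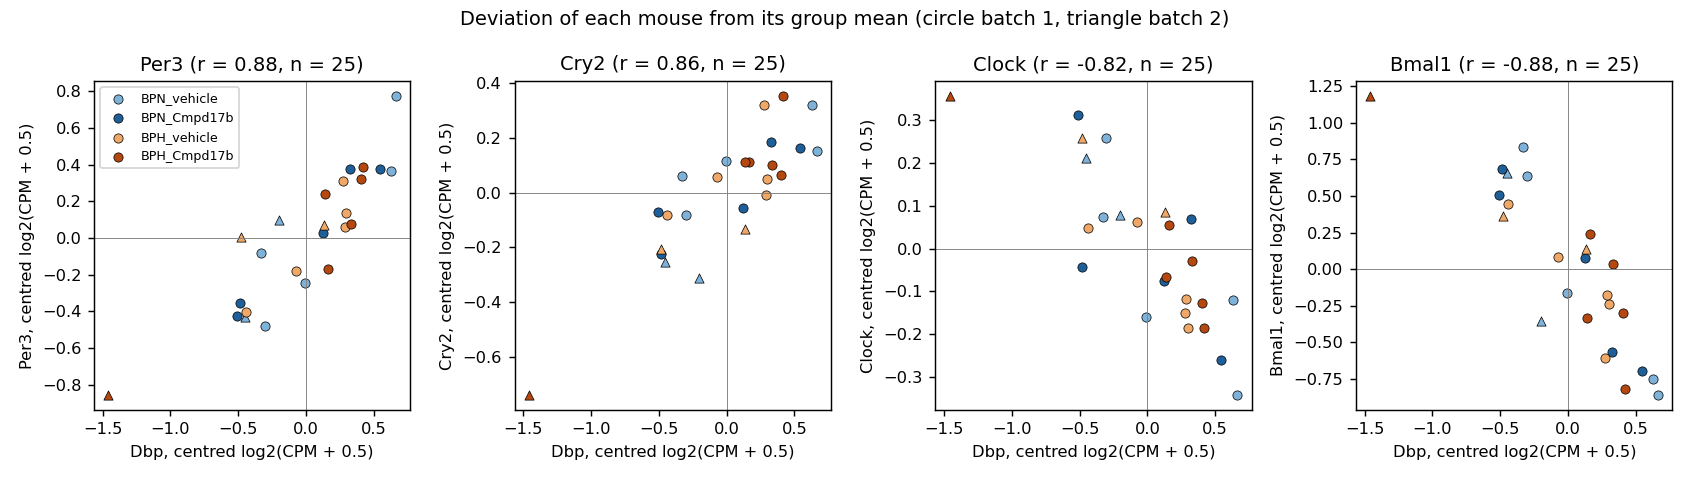
Deviation of each of 25 mice from its group mean in log2(CPM + 0.5), with Dbp on the horizontal axis and Per3, Cry2, Clock or Bmal1 on the vertical axis, coloured by group, circles for batch 1 and triangles for batch 2. Per3 (r = 0.88) and Cry2 (r = 0.86) rise with Dbp, and Clock (r = -0.82) and Bmal1 (r = -0.88) fall. The leftmost point is BPH_Cmpd17b replicate 6.

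The relation did not rest on single mice for most of these genes. The libraries farthest from the median of centred Dbp were BPH_Cmpd17b replicate 6 (43.9 CPM of Dbp) and BPN_Cmpd17b replicate 5 (59.3 CPM). Without those 2, r was 0.84 for Per3, 0.76 for Cry2, 0.68 for Per2, -0.76 for Clock and -0.86 for Bmal1. It was 0.49 for Nr1d2, 0.44 for Per1 and 0.41 for Nr1d1. Without BPH_Cmpd17b replicate 6 alone, Nr1d2 (r = 0.45), Nr1d1 (0.41) and Hlf (0.42) no longer passed, with adjusted permutation p of 0.0729, 0.0729 and 0.0885. Within batch 1, r was 0.90 for Per3, 0.72 for Cry2, 0.76 for Per2, 0.52 for Per1, -0.75 for Clock and -0.91 for Bmal1, and 12 of the 18 genes passed the threshold. In each group of 6 or more mice taken alone, Per3 had r of 0.87, 0.72 and 0.94 (BPN_vehicle, BPH_vehicle and BPH_Cmpd17b), Clock -0.86, -0.83 and -0.94, and Bmal1 -0.89, -0.86 and -0.88. None of the 54 within-group correlations passed adjustment by the exact permutation test, the lowest adjusted p being 0.0563.

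Of the library measures, 3 of 14 had an unadjusted permutation p under 0.05 with Dbp. The mitochondrial share had r = 0.65 and rho = 0.40 with Dbp over 25 mice (permutation p = 0.012, 0.143 after adjustment over 14 such measures), and 0.19 within batch 1. The summed level of 3 erythroid markers had r = 0.46 (permutation p = 0.0205, adjusted p = 0.143), and 0.34 within batch 1. The TMM factor had r = -0.59 (permutation p = 0.0390, adjusted p = 0.182), and 0.20 within batch 1. The fibroblast sum had r = -0.41 (permutation p = 0.150), and 0.22 within batch 1. The cardiomyocyte sum had r = 0.16 and total counts 0.30. None of the 14 passed an adjusted p of 0.05, and their part in the correlations between clock genes was not tested.

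**Figure D4:**
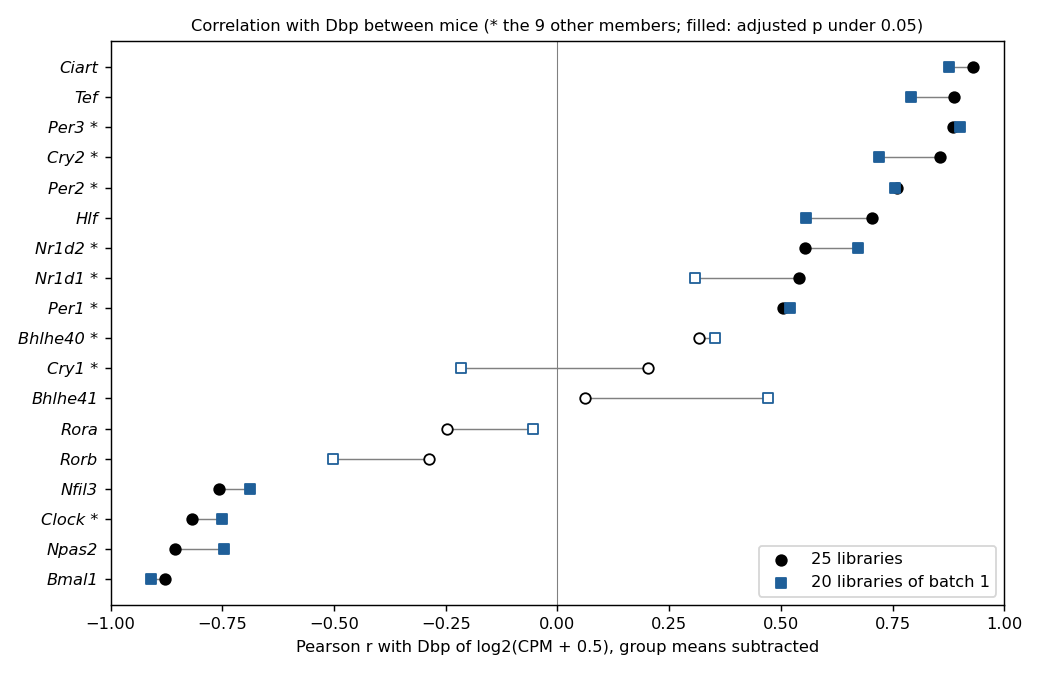
Pearson r with Dbp (horizontal axis) of the 9 other members, marked by asterisks, and 9 further clock genes, over 25 libraries (circles) and the 20 of batch 1 (squares), filled where the adjusted permutation p was under 0.05. Ciart, Tef, Per3, Cry2 and Per2 lie at the positive end with r of 0.76 to 0.93, and Nfil3, Clock, Npas2 and Bmal1 at the negative end with r of -0.88 to -0.76.

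Ranked over 11966 genes by likeness to Dbp in the same centred values, the 6 highest were Ciart, Tef, Per3, Cry2, Tcap (0.85), which encodes the sarcomere protein telethonin, and Pfkfb1 (0.80), a regulator of glycolysis. The 6 lowest were Bmal1, Npas2, Rcan1 (-0.84), an inhibitor of calcineurin, Ypel2 (-0.82), Clock and Igf2bp2 (-0.81), an RNA-binding protein. Within batch 1 Tcap had r = 0.74, Pfkfb1 0.62, Rcan1 -0.64, Ypel2 -0.62 and Igf2bp2 -0.48. The ranking is a description over genes measured in the same libraries.

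The strains were compared first without the drug. In vehicle-treated mice 2 of the 10 members were higher in BPH/2J and none lower at an adjusted p under 0.05 (edgeR quasi-likelihood test, Benjamini-Hochberg over all genes), where 9.16% of all genes tested were higher, 9.73% lower and 18.9% called in all. The count of members was thus near the background. The members' median log2 difference was 0.08, against 0.00 over all genes, and 6 of 10 were positive. By unadjusted p, 2 of 10 members were under 0.05, against 30.5% of genes.

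Clock ran from 20.6 to 31.5 CPM with a median of 27.7 CPM in BPN_vehicle, and from 28.1 to 38.4 CPM with a median of 33.2 CPM in BPH_vehicle. The BPH/2J mice lay higher, but the groups overlapped. By edgeR the log2 difference was 0.28 ± 0.088 (SE, adjusted p = 0.0243). Bhlhe40 ran from 38.9 to 64.6 CPM (median 53.1 CPM) in BPN_vehicle and from 56.2 to 81.3 CPM (median 65.6 CPM) in BPH_vehicle, again with overlap. Its log2 difference was 0.33 ± 0.116 (SE, edgeR adjusted p = 0.0476). Neither call was firm. Clock was not called within batch 1 (0.26, edgeR adjusted p = 0.104), without a batch term (adjusted p = 0.0640), or without any one of BPH_vehicle replicate 5, BPH_vehicle replicate 6 or BPN_vehicle replicate 2 (adjusted p = 0.0554 to 0.0579). Bhlhe40 lost its call in 10 of the 14 fits that each left out 1 library, with an edgeR adjusted p of up to 0.125, and within batch 1 (0.29, adjusted p = 0.160). Both calls ended without the 2 libraries with hepatocyte markers (0.25 and 0.30, edgeR adjusted p = 0.107 and 0.111), and that of Bhlhe40 in the 23 libraries (0.28).

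Of the other 8 members, none passed by edgeR. In the 23 libraries Cry1 (-0.26, edgeR adjusted p = 0.0490) and Nr1d2 (0.25, adjusted p = 0.0454) did. The repressors Per2 (log2 difference -0.41, 95% interval -0.95 to 0.13), Per3 (-0.27, -0.66 to 0.11), Cry1 (-0.21, -0.44 to 0.01) and Cry2 (-0.15, -0.34 to 0.03) had negative values. The values for Nr1d2 (0.21, -0.01 to 0.43), Dbp (0.16, -0.27 to 0.60), Per1 (0.14, -0.46 to 0.74) and Nr1d1 (0.02, -0.20 to 0.25) were positive. No member had groups without overlap, against 6.36% of all genes.

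Among the other clock genes the strains differed in Rorb, a ROR receptor. It was at 0.588 ± 0.241 CPM (SD, n = 7) in BPN_vehicle and 2.08 ± 0.534 CPM (SD, n = 7) in BPH_vehicle, with no overlap, a log2 difference of 1.80 ± 0.237 (SE, edgeR adjusted p = 1.28e-06). It was the 1 gene called of 9 reported from the list of further clock genes, and Bmal1 (-0.14, adjusted p = 0.814 by edgeR) was not called. None of 14 clock regulators (kinases, F-box proteins and corepressors) was called. Of 20 genes known as rhythmic outputs in the heart, 6 were higher and 1 lower: among them Bdh1, a ketone body enzyme (0.90 by log2), Ucp3, a mitochondrial uncoupling protein (1.35), Pdk4, which restrains glucose oxidation (1.27), and Pik3r1, a regulatory subunit of PI3 kinase (0.43), were higher. The lower one was Dgat2, a triglyceride enzyme (-0.40), named after its value was seen. Of 13 glucocorticoid response genes 1 was called, Sgk1, a kinase of ion transport, lower by -0.42 (within batch 1 the edgeR adjusted p was 0.0557), and of 16 immediate early genes none.

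Under Cmpd17b, 1 of 10 members was higher in BPH/2J and none lower by edgeR, where 7.48% of genes were higher, 6.65% lower and 14.1% called in all. Bhlhe40 stood at 63.0, 51.6, 53.0, 50.5 and 38.3 CPM in the 5 BPN_Cmpd17b mice and at 58.4 to 86.6 CPM (median 67.4 CPM) in the 6 BPH_Cmpd17b mice. One BPN/3J mouse, at 63.0 CPM, lay within the BPH/2J range. The log2 difference was 0.43 ± 0.134 (SE, edgeR adjusted p = 0.0277), and 0.44 within batch 1. Leaving out 1 library at a time took the call away in 5 of 11 fits: BPH_Cmpd17b replicate 2 or 3, or BPN_Cmpd17b replicate 2, 4 or 5 (values 0.34 to 0.43, edgeR adjusted p = 0.0517 to 0.111).

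Dbp stood at 123, 60.2, 106, 92.0 and 59.3 CPM in BPN_Cmpd17b and at 134 to 162 CPM in 5 of the 6 BPH_Cmpd17b mice, the other being replicate 6 at 43.9 CPM. Those 5 lay above all 5 BPN/3J mice and the sixth below them. The log2 difference was 0.62 ± 0.244 (SE) and was not called (edgeR adjusted p = 0.0973). Without replicate 6 it was 0.76 (edgeR adjusted p = 0.0177), within batch 1 0.75 (adjusted p = 0.0228), and without BPN_Cmpd17b replicate 1 0.77 (adjusted p = 0.0459). Clock, called under vehicle, had a difference of -0.08 (95% interval -0.29 to 0.12) here. Whether the strain difference itself changed with treatment is tested by the difference of the Cmpd17b effects, given below. The members' median was 0.23, against 0.01 over all genes, with 7 of 10 positive. By unadjusted p 3 of 10 members were under 0.05, against 25.1% of genes, and no member's groups were free of overlap, against 12.6% of genes.

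Rorb (1.77 ± 0.271, SE, edgeR adjusted p = 1.83e-05) was again the 1 further clock gene called of 9. The 2 strain comparisons have no samples in common. Bmal1 was lower by value, 5.08 ± 3.06 CPM (SD, n = 6) in BPH_Cmpd17b against 8.04 ± 3.50 CPM (SD, n = 5) in BPN_Cmpd17b, but not called (-0.83 ± 0.361 by log2, edgeR adjusted p = 0.142). In the 23 libraries it was called (-1.04, edgeR adjusted p = 0.0464). No clock regulator of 14 was called. Of the 20 output genes Bdh1 (0.83) and Wee1 (0.49), a cell cycle kinase under E-box control, were higher and Dgat2 (-0.51) lower. Pdk4 and Ucp3 were not called here. Mean Pdk4 was 331 CPM in BPN_Cmpd17b and 278 CPM in BPH_Cmpd17b, and mean Ucp3 37.4 and 44.1 CPM. The call of Wee1 ended in 6 of 11 fits that each left out 1 library (BPH_Cmpd17b replicate 4 or 5, or BPN_Cmpd17b replicate 1, 2, 4 or 5), with an edgeR adjusted p of up to 0.119, while Bdh1 and Dgat2 were called in all 11. None of the glucocorticoid response or immediate early genes was called.

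**Figure D5:**
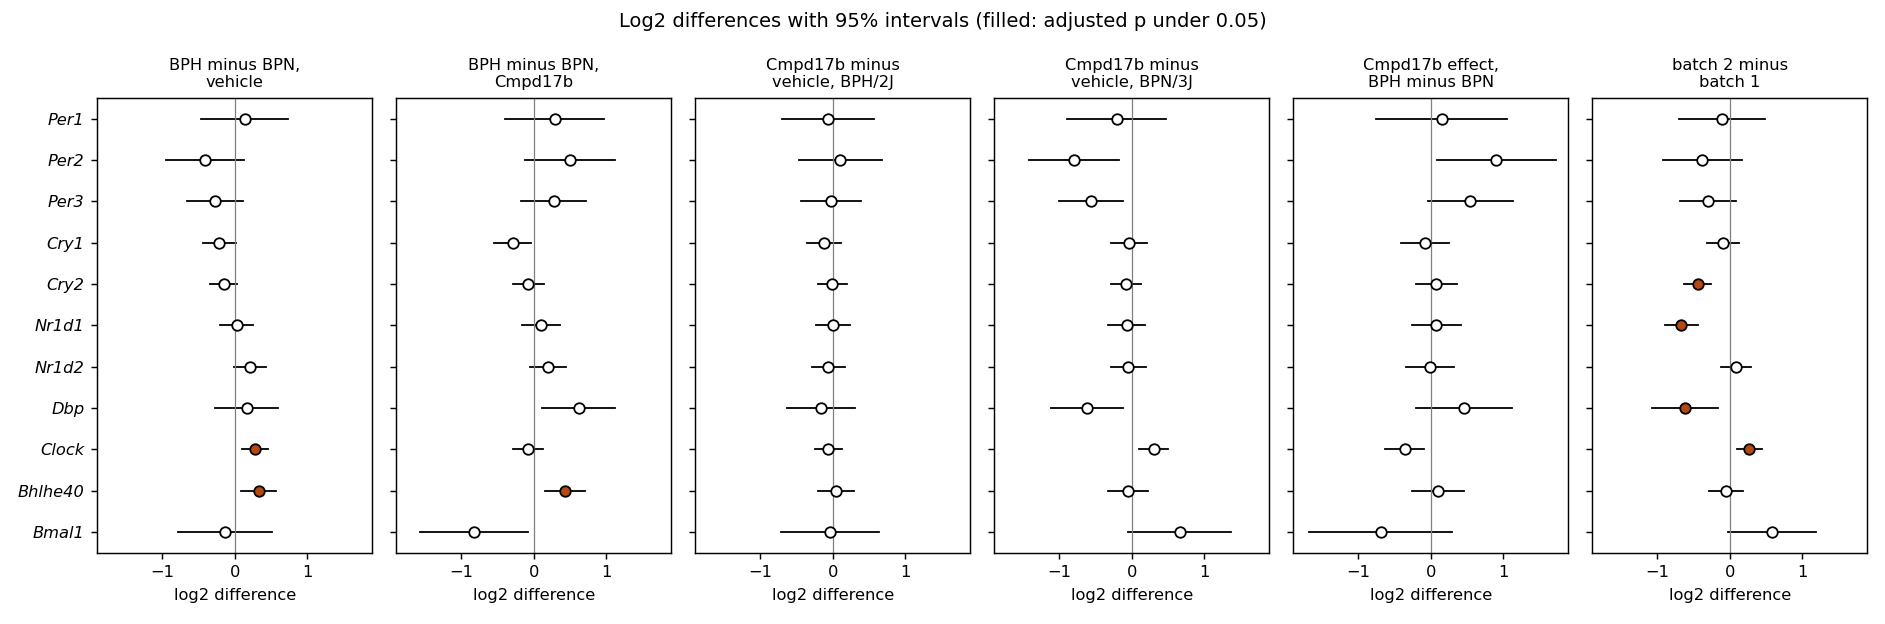
Log2 difference (horizontal axis) with its 95% interval for the 10 members and Bmal1 in 6 comparisons, filled where the edgeR adjusted p was under 0.05. Filled points are Clock and Bhlhe40 between strains under vehicle, Bhlhe40 between strains under Cmpd17b, and Cry2, Nr1d1, Dbp and Clock between batches; both Cmpd17b panels and their difference have none.

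Cmpd17b in BPH/2J mice changed none of the 10 members by edgeR, and none had an unadjusted p under 0.05, where 0% of all genes were called and 1.85% (287 genes) had an unadjusted p under 0.05. DESeq2 and limma voom also called no gene of any kind here. The values ran from -0.16 for Dbp (95% interval -0.63 to 0.31) to 0.10 for Per2 (-0.47 to 0.68). The intervals were narrow for Clock (-0.06, -0.25 to 0.12), Cry2 (-0.01, -0.20 to 0.19) and Nr1d1 (0.00, -0.23 to 0.24) and wide for Per1 (-0.06, -0.70 to 0.57). Without BPH_Cmpd17b replicate 6 the value for Dbp was 0.06. The median over members was -0.04 and over all genes 0.00. No member had groups without overlap, against 0.0772% of genes.

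In BPN/3J mice no member passed either, and 0% of all genes did by edgeR (DESeq2 called 1 gene, which was not a member). By unadjusted p, 4 of 10 members were under 0.05, where 9.69% of all genes (1506) did, and 9 of 10 had negative values. Each of the 4 had an edgeR adjusted p of 0.514. The 4, Per2, Per3, Dbp and Clock, were correlated between mice (Per2 with Per3 r = 0.91, Dbp with Clock r = -0.82). They are not independent, so 4 of 10 cannot be judged against the share of all genes. Per2 ran from 6.03 to 23.5 CPM (median 12.9 CPM) on vehicle and stood at 11.4, 7.04, 11.2, 7.64 and 5.77 CPM on Cmpd17b, a log2 value of -0.80 ± 0.299 (SE). Per3 ran from 25.5 to 61.7 CPM (median 33.9 CPM) on vehicle and stood at 33.8, 20.2, 33.9, 26.4 and 19.2 CPM on Cmpd17b (-0.57 ± 0.215, SE). Dbp ran from 84.5 to 184 CPM (median 101 CPM) on vehicle, against the 59.3 to 123 CPM given above (-0.62 ± 0.244, SE). Of the vehicle mice, BPN_vehicle replicate 7 was highest for all 3 genes and replicate 5 next, and the Dbp of the other 5, 84.5 to 115 CPM, lay within the treated range. Clock had a positive value, 0.30 ± 0.099 (SE), with 25.5, 29.7, 32.1, 29.0 and 38.1 CPM on Cmpd17b against 20.6 to 31.5 CPM on vehicle. Groups overlapped for all 10, as for all but 0.341% of genes. In the 23 libraries the values were -0.56 for Per2, -0.33 for Per3, -0.42 for Dbp and 0.23 for Clock, with edgeR adjusted p of 0.810 to 0.833. Bmal1 had a value of 0.66 (adjusted p = 0.538 by edgeR).

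The difference between the 2 Cmpd17b effects was called for no member and 0% of genes by edgeR, DESeq2 or limma voom. Clock (-0.36, 95% interval -0.64 to -0.09) and Per2 (0.91, 0.08 to 1.73) had an unadjusted p under 0.05, 2 of 10 members against 3.83% of genes (595), and both had an edgeR adjusted p of 0.917. These 2 genes were correlated between mice (r = -0.71), so their count cannot be judged against that share. The difference of the effects is also the test of whether the strain difference changed with treatment. By it, no such change was found for Clock, Bhlhe40 (0.10, -0.26 to 0.46) or Dbp (0.46, -0.21 to 1.12). None of the further clock genes, regulators, outputs, glucocorticoid response or immediate early genes was called in either Cmpd17b comparison. These comparisons use the same vehicle groups as the strain comparison, so their values are not independent of it.

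Between batches 4 of 10 members differed, with 1 higher and 3 lower in batch 2 by edgeR, where 11.5% of genes were higher, 9.89% lower and 21.4% called in all. Nr1d1 ran from 70.8 to 86.5 CPM (median 72.8 CPM) in the 5 libraries of batch 2 and from 90.6 to 154 CPM (median 114 CPM) in the 20 of batch 1. Every batch 2 library lay below every batch 1 library. The log2 difference was -0.67 ± 0.111 (SE, edgeR adjusted p = 0.000115). Cry2 ran from 17.6 to 26.8 CPM (median 25.8 CPM) in batch 2 and from 27.2 to 40.2 CPM (median 31.9 CPM) in batch 1, again with no overlap (-0.45 ± 0.091, SE, edgeR adjusted p = 0.000963). Batches without overlap were found for 2.56% of genes, and an unadjusted p under 0.05 for 33.8%, with the same 4 members of 10. Dbp (-0.62 ± 0.219, SE, adjusted p = 0.0442) and Clock (0.27 ± 0.084, SE, adjusted p = 0.0223) differed too by edgeR. Both calls ended without BPH_Cmpd17b replicate 6, where the log2 values were -0.38 and 0.22 (edgeR adjusted p = 0.214 and 0.114), and also without BPH_vehicle replicate 1 or BPN_vehicle replicate 1, while that of Dbp ended without BPN_vehicle replicate 2 as well. Without both BPN_vehicle replicate 1 and replicate 2, the libraries with hepatocyte markers, Nr1d1 (-0.62, edgeR adjusted p = 0.00913) and Cry2 (-0.48, adjusted p = 0.0145) were still called. Dbp (-0.70, edgeR adjusted p = 0.144) and Clock (0.30, adjusted p = 0.0764) were not. In the 23 libraries Nr1d1 and Cry2 were again the 2 members called.

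Other listed genes also differed between batches by edgeR, many of them with calls that 1 library decided. Tef (-0.38), Tcap (-0.67) and the ion channel genes Kcnip2 (-0.38) and Kcnh2 (-0.31) were lower in batch 2, and Bhlhe41 (0.45), a relative of Bhlhe40, and the kinase gene Gsk3b (0.28) were higher. The calls of Tef, Kcnip2 and Kcnh2 ended without BPH_Cmpd17b replicate 6 (-0.21, -0.28 and -0.20, edgeR adjusted p = 0.244, 0.126 and 0.175), that of Tef also without BPN_vehicle replicate 1, and that of Kcnh2 without BPN_vehicle replicate 2. The call of Bhlhe41 ended without BPH_vehicle replicate 7 (0.37, edgeR adjusted p = 0.0539). That of Gsk3b ended in 4 of the 5 fits that each left out 1 library (edgeR adjusted p = 0.0586 to 0.0694). Without the 2 libraries with hepatocyte markers, the calls of Tef, Kcnh2, Bhlhe41 and Gsk3b ended (edgeR adjusted p = 0.0649, 0.110, 0.226 and 0.168). Of 13 glucocorticoid response genes 5 were higher and none lower, among them Errfi1 (0.56), Klf9 (0.34) and Tsc22d3 (0.38). The call of Tsc22d3 ended without BPH_vehicle replicate 7 (0.32, edgeR adjusted p = 0.0507). It also ended without the 2 libraries with hepatocyte markers (0.33, edgeR adjusted p = 0.123). Of 16 immediate early genes 4 were higher and none lower: Egr3 (1.40), Atf3 (0.98), Egr2 (1.45) and Ier3 (0.40), early transcripts of cell stimulation. All 4 calls ended without BPH_Cmpd17b replicate 6, where the values were 0.70, 0.66, 0.25 and 0.34 (edgeR adjusted p = 0.104, 0.0750, 0.633 and 0.112), and in the 23 libraries (adjusted p = 0.0591 to 0.595); that of Ier3 also ended without BPH_vehicle replicate 7. Without the 2 libraries with hepatocyte markers, Ier3 was not called either (0.49, edgeR adjusted p = 0.0615). For the strain values, the fits within batch 1 given above hold no batch difference.

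The members Cry2, Nr1d1, Dbp and Bhlhe40 share bases with a gene on the opposite strand in the GENCODE M21 annotation: Cry2 with D930015M05Rik (295 bases), Nr1d1 with Thra (263), Dbp with Sphk2 (539) and Bhlhe40 with 0610040F04Rik (118). The sources used here do not say whether counting used strand, so the levels of these 4 are uncertain to that extent.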

How the data were processed

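Left ventricle libraries of polyadenylated RNA were prepared with a VAHTS kit and sequenced as paired reads, per the labels' protocols. The submitters' processing notes name Trim Galore 0.6.7, STAR 2.7.9a and the build GRCm39 (mm39). The sources used here name neither the counting program nor its use of strand. The authors deposited expected counts per gene, of which 93.3% are whole, and these were rounded. Libraries were grouped by the strain and treatment in the labels, each taken as 1 mouse. The 10 members, the gene lists and the library left out were chosen with earlier results of these data known. The text names all members, Bmal1 and Npas2, and from the genes called in each list up to 4 by smallest p; likeness to Dbp adds the 6 highest and 6 lowest genes. Bmal1 is the table's name for Arntl. Arntl2, and Chrono as a name for Ciart, were not matched. Some items of the lists are not reported here.

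Counts were filtered (filterByExpr), scaled by TMM and fitted with edgeR 4.0.16 (R 4.3.3, robust quasi-likelihood, 1 coefficient per group and a batch term). BPN_Cmpd17b, with batch 1 alone, borrows the batch effect of the rest. Benjamini-Hochberg adjustment ran over 15543 genes, with a threshold of 0.05. Alternatives were RLE size factors, DESeq2 1.42.0, limma 3.58.1 voom with quality weights, no filter, 1 CPM in 5 libraries, no batch term, batch 1 alone, the compared groups alone, 26 or 23 libraries, and leaving out each library. For correlations a pseudocount of 0.1 CPM replaced 0.5, and batch means were subtracted; leaving out libraries there, and leaving out the 2 libraries with hepatocyte markers, were added after seeing the data. The scripts were tested on simulated data.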

Additional observations from a re-analysis of the deposited data

Results flagged for a closer look

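Dixon's test was applied to 76 sets of values, 19 clock genes in 4 groups. In 7 sets a library's gap to the nearest other, over the range of the group, exceeded the 95% critical value. Chance gives this in about 5% of independent sets. These sets share mice and their genes are correlated, so 7 of 76 cannot be judged against that share. BPH_Cmpd17b replicate 6 was the library in 5 of the 7. Its Dbp stood at 43.9 CPM, the next lowest of the group being 134 CPM. Its Cry2 stood at 17.6 CPM, against 31.0 CPM for the next lowest. Its Bmal1 was highest at 10.9 CPM (next 5.45 CPM), its Npas2 at 5.06 CPM (next 2.26 CPM) and its Nfil3 at 7.97 CPM (next 4.87 CPM). The library also had the lowest mitochondrial share and the highest atrial, fibroblast and macrophage sums of the 25, given above. Their part in these values was not tested.

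The remaining 2 concerned further clock genes in single mice. Tef stood at 149.6 CPM in BPH_vehicle replicate 4 (next 127.6 CPM). Bhlhe41 stood at 39.5 CPM in BPH_vehicle replicate 7 (next 27.4 CPM).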

How the results depend on the processing

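With all 26 libraries no member was called between strains (0 under vehicle, 0 under Cmpd17b), and the calls over all genes fell to 1492 and 1195. Members called between strains under vehicle numbered 0 without a batch term, within batch 1 or without the 2 libraries with hepatocyte markers, 3 with 23 libraries (Clock, Cry1 and Nr1d2), and 1 with RLE size factors, with the compared groups alone or with limma voom; leaving out 1 library gave 0 to 2. Under Cmpd17b they numbered 2 with 23 libraries, within batch 1, with the compared groups alone or with limma voom (3405 genes in all), and 0 to 2 leaving out 1 library. Between batches they numbered 2 with 23 libraries, limma voom or without the libraries with hepatocyte markers (1430 genes in all), and 2 to 4 leaving out 1 library. DESeq2 called 1 gene in all for Cmpd17b in BPN/3J. The number of genes correlated with Dbp was 11 to 13 in the 7 alternatives other than leaving out 1 library, and 10 to 14 leaving out 1.

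The signs that turned belong to values not called by edgeR, or to r not past the threshold. For Cmpd17b in BPH/2J they were Per3 0.046 and Bhlhe40 -0.021 with 26 libraries; Per1 0.079, Per3 0.17, Cry2 0.099, Nr1d2 0.050 and Dbp 0.075 with 23; Per3 0.041 and Cry2 0.068 without a batch term; Per1 0.13, Per3 0.18, Cry2 0.12, Nr1d2 0.047 and Dbp 0.091 within batch 1; and Per3 0.094, Cry2 0.078 and Nr1d2 0.023 with limma voom. For Cmpd17b in BPN/3J they were Nr1d2 0.037 with 23 libraries and 0.012 with limma voom, and Cry2 0.034 and Nr1d1 0.082 without a batch term. For the difference of the effects they were Cry1 0.023 and Nr1d2 0.013 with 23 libraries, Nr1d2 0.064 within batch 1 and 0.010 with limma voom. Between strains they were Per1 -0.0027 and Nr1d1 -0.033 within batch 1 and Nr1d1 -0.015 without the libraries with hepatocyte markers (vehicle), and Npas2 0.037 without a batch term (Cmpd17b). Between batches Per1 was 0.074 with 23 libraries and 0.049 with limma voom. For r with Dbp they were Rora 0.069 with 23 libraries and Cry1 -0.22 within batch 1.

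Leaving out 1 library turned further uncalled values, with these ranges: between strains under vehicle Nr1d1 -0.022 to 0.060 and Bmal1 -0.28 to 0.080; under Cmpd17b Clock -0.15 to 0.0014 and Npas2 -0.35 to 0.0075. For Cmpd17b in BPH/2J the ranges were Per1 -0.20 to 0.069, Per2 -0.062 to 0.29, Per3 -0.11 to 0.14, Cry2 -0.066 to 0.098, Nr1d1 -0.081 to 0.070, Nr1d2 -0.13 to 0.044, Dbp -0.27 to 0.056, Bhlhe40 -0.026 to 0.11 and Bmal1 -0.33 to 0.10. In BPN/3J they were Nr1d2 -0.10 to 0.053 and Bhlhe40 -0.14 to 0.035; for the difference of the effects Per1 -0.024 to 0.36, Nr1d1 -0.013 to 0.15 and Nr1d2 -0.12 to 0.050; between batches Per1 -0.29 to 0.071 and Bhlhe40 -0.13 to 0.036; and for r Cry1 -0.16 to 0.37 and Bhlhe41 -0.015 to 0.23. The cause of these changes was not tested. No paired analysis was possible because the labels give the mice no replicate numbers shared between groups. Members were counted at 144 or more in every library.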
